A study of Homo sapiens with 4 samples.

Results

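Short chromatin loops, with 30 kb or less between the starts of their anchors, were described in the human lymphoblastoid cell line HG00731. This is the line in the sample titles, while the growth protocol in the labels names another line, HG00721. Members were all loops of both deposited loop lists on chromosomes 1 to 22 whose 5 kb anchor bins start at most 30 kb apart, which gave 8302 of 107191 autosomal loops, out of 108499 loops in all. Of these, 2634 of 27785 stood in the list labelled SMC1 and 5668 of 79406 in the list labelled CTCF, and they covered 7545 distinct pairs of bins, of which 757 stood in both lists. The members were therefore chosen by the authors' own loop calls and by distance, so their read pairs and their enrichment are given as a description without a test.

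HG00731 is a B-cell line of the 1000 Genomes Project made by transformation with Epstein-Barr virus. SMC1, a subunit of cohesin, was profiled by HiChIP after fixation with formaldehyde and ethylene glycol bis(succinimidyl succinate), and CTCF by HiChIP after formaldehyde alone. Each target had 2 biological replicates, which the authors merged into 1 peak list and 1 loop list, so no value below carries a replicate error. Target and fixation changed together and cannot be told apart in any difference between the lists. Both come from 1 cell line.

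HiChIP joins DNA ends that lie close together in the nucleus and then enriches the joined fragments with an antibody against a bound protein. Cohesin is a ring-shaped complex that extrudes loops of DNA, and CTCF is a zinc-finger protein that halts it, most often at a pair of CTCF sites that point towards each other. Loops of this size can lie inside 1 gene, join neighbouring promoters, or join a gene's start to its end. The loop caller MAPS compares the read pairs of 2 bins with a count expected from their distance, sequence and peak content, and looks only at pairs in which at least 1 bin holds a peak. The ratio of the 2 counts is called observed over expected below.

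Every deposited loop had at least 12 read pairs, an observed over expected of at least 2.00 and a false discovery rate below 0.01. The short loops carried 130741 read pairs in the SMC1-labelled list (16.7% of that list's pairs for 9.48% of its loops) and 306273 in the CTCF-labelled list (11.6% for 7.14%). The labels of the loop lists and the peaks were at odds. All 5668 CTCF-labelled short loops had an SMC1 peak at an anchor, while 942 (16.6%, 95% Wilson interval 15.7 to 17.6) had no CTCF peak at either anchor. All 2634 SMC1-labelled short loops had a CTCF peak at an anchor, and 6 (0.228%) had no SMC1 peak. Over loops of all spans the numbers were 0 of 79406 without an SMC1 peak and 3654 without a CTCF peak in the CTCF-labelled list, and 0 of 27785 without a CTCF peak and 11 without an SMC1 peak in the SMC1-labelled list. The loop caller, MAPS, keeps a bin pair only where an anchor holds a peak of the list it was given, and each loop list met that rule in full with the peaks of the other target and not with those of its own label. The study's own loop numbers per target also go with the opposite labels. The labels of both loop lists therefore appear to be exchanged, and what is given below for the CTCF-labelled list may belong to SMC1 and the reverse. The lists are called by their labels throughout, and the calling rates, which depend on which peaks belong to which loops, are given with the peaks of either target where they are compared. Intervals are Wilson intervals for shares and rank intervals for medians. They cover counting error only, and neighbouring loops share bins and reads.

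The sequences below show examples of CTCF-anchored short loops in these lists, with CTCF core words that face each other across the loop. Capitals mark the word, CCANNAGNNGGC on the forward strand at the left anchor and its reverse complement GCCNNCTNNTGG at the right anchor. Each line gives 30 bases of the forward strand of hg38, 5′ to 3′, from the reference genome.
MYL3, chr3:46866911-46866940: cacgatcagCCAGCAGGGGGCgcagaaggg
PTH1R, chr3:46895360-46895389: tcaccgtgcGCCCCCTGGTGGggccttcac
SMARCC2 side, chr12:56193126-56193155: cagaattgaCCAGCAGAGGGCaaccaacaa
NABP2, chr12:56224134-56224163: gccctgtgcGCCTTCTAGTGGtggattttt
IL2RB, chr22:37166687-37166716: cagaagttgCCACCAGAGGGCagtgcgcgc
C1QTNF6, chr22:37198624-37198653: gacgcgagcGCCTCCTGCTGGgcagagccc
GRIFIN left, chr7:2451564-2451593: gggcatcttCCACCAGGGGGCagccacggc
GRIFIN right, chr7:2469084-2469113: gtcgggagtGCCCTCTGCTGGccggtctgt

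The first pair lay in an intron of MYL3, a myosin light chain of heart and slow muscle, and in an intron of PTH1R, the parathyroid hormone receptor, and its 30 kb loop had 95 read pairs in the SMC1-labelled list and 201 in the CTCF-labelled list. The second lay outside any gene near SMARCC2, a subunit of BAF chromatin remodelling complexes, and in an intron of NABP2, which encodes a single-stranded DNA-binding protein, with 219 and 337 read pairs over 30 kb. The third lay in introns of IL2RB, the beta chain of the interleukin-2 receptor, and of C1QTNF6, and its 199 read pairs over 30 kb were called in the CTCF-labelled list alone. The fourth pair was intergenic and had 66 read pairs over 15 kb, again in the CTCF-labelled list alone. The nearest coding start was that of GRIFIN, 21398 bp from the left bin and 6398 bp from the right bin. The MYL3 and GRIFIN pairs had the word within 50 bp of a CTCF summit, and the other pairs elsewhere inside a CTCF peak. With the word anywhere in the bin's strongest CTCF peak among those that hold it, the MYL3 pair was not read as convergent. Further convergent pairs are not shown, among them a 10 kb CTCF-labelled loop of 141 read pairs on chromosome 9, convergent in both settings.

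The exact word was rare, since 4.22% of 61417 autosomal CTCF peaks held it within 50 bp of the summit on either strand and 15.4% of bins with a CTCF peak held it in the peak. Only 2 SMC1-labelled and 7 CTCF-labelled short loops had 1 unambiguous word near a summit at both anchors, with 1 and 5 of them convergent, so the orientation could not be read at this number. A further setting, chosen after these numbers were seen, took the word anywhere in the bin's strongest CTCF peak among those that hold it. With this setting 31 and 79 short loops could be read. Convergent words stood in 12 of the 31 SMC1-labelled loops (38.7%, 23.7 to 56.2), tandem words in 15 and divergent words in 4. Of the 79 CTCF-labelled loops 55 were convergent (69.6%, 58.8 to 78.7), 20 tandem and 4 divergent. Loops from 35 kb to under 500 kb were convergent in 698 of 986 (70.8%) and 1352 of 1979 (68.3%) cases. The convergent share of short SMC1-labelled loops was thus the lowest of these values, on 31 loops. With the word within 100 bp of a summit, 5 of 11 short SMC1-labelled loops (45.5%, 21.3 to 72.0) and 14 of 25 short CTCF-labelled loops (56%, 37.1 to 73.3) were convergent, against 69.6% and 68.7% of middle loops, with intervals that take in the middle shares.

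The number of loops did not rise evenly with span. In the SMC1-labelled list 974 short loops spanned 10 kb, the smallest span in the lists, against 465 at 15 kb, 396 at 20 kb, 378 at 25 kb and 421 at 30 kb. The CTCF-labelled list held 1174, 845, 1000, 1235 and 1414 at these spans. Just outside the limit, at 35 kb, the lists held 434 and 1517. The 10 kb loops were thus the largest class among the SMC1-labelled short loops and an excess over 15 and 20 kb in the CTCF-labelled ones.

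To set these numbers against what could have been called, all pairs of 5 kb bins of 10 to 30 kb with a peak at 1 or both bins were enumerated as candidates. With the peaks of each list's own label, 0.348% of 756125 candidates were in the SMC1-labelled list and 0.876% of 539641 in the CTCF-labelled list. With the peaks of the other target these calling rates were 0.488% and 0.75%. The CTCF peaks reach 4726 of the 5668 CTCF-labelled short loops, since the 942 without a CTCF peak are no candidates, while the SMC1 peaks reach all 5668. By span and with own-label peaks, the SMC1-labelled rate fell from 0.643% (0.604 to 0.685) at 10 kb to 0.249% (0.226 to 0.276) at 25 kb. It was 0.418% at 100 kb. The CTCF-labelled rate was 0.813% at 10 kb, 0.625% at 15 kb, 1.17% at 30 kb and 1.55% at 100 kb. With the peaks of the other target the SMC1-labelled rate was 0.907% at 10 kb, 0.350% at 25 kb and 0.593% at 100 kb. The CTCF-labelled rate was then 0.780% at 10 kb, 0.561% at 15 kb, 0.930% at 30 kb and 1.14% at 100 kb. The rate at 15 kb was below that at 10 kb in both lists and with either peak list, as the plot of loops and calling rates by span shows.

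**Figure D1:**
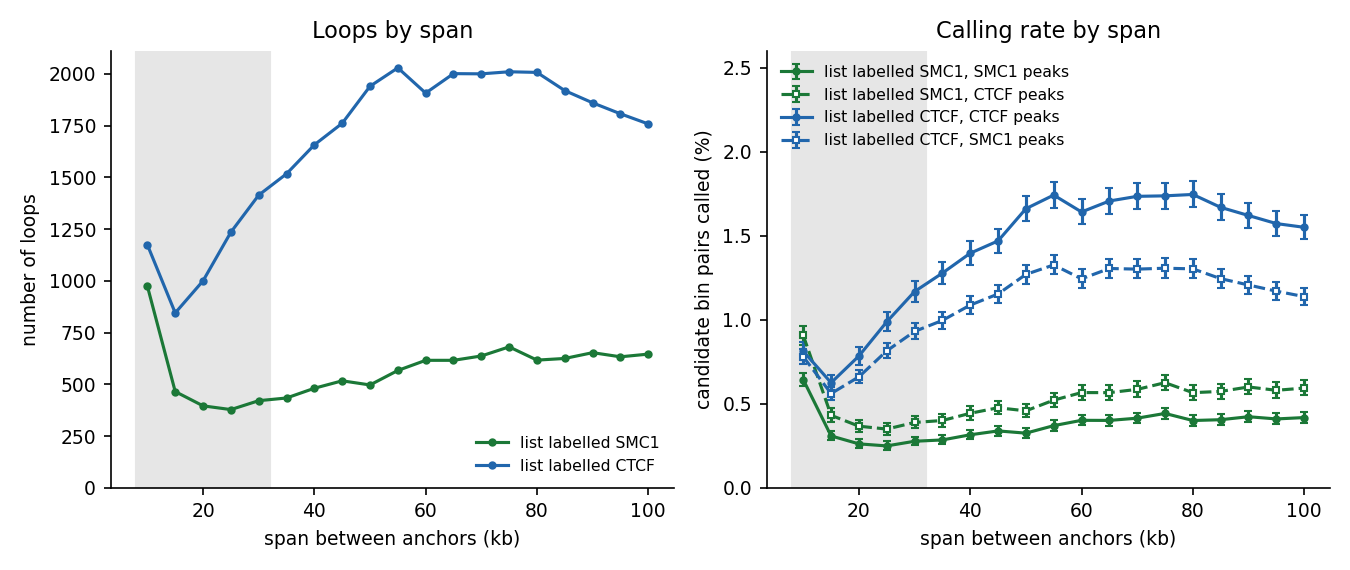
Number of loops (left) and share of candidate bin pairs that were called as loops in percent (right) against the span between anchors in kb, for the list labelled SMC1 (green) and the list labelled CTCF (blue); on the right, solid lines use peaks of the list's own label, dashed lines peaks of the other target, bars are 95% Wilson intervals, and grey marks spans up to 30 kb. Both lists have more loops at 10 kb than at 15 kb (974 against 465 and 1174 against 845), and the calling rates fall after 10 kb, where within the short spans, and with own-label peaks, the SMC1-labelled rate is lowest at 25 kb (0.249%) and the CTCF-labelled rate at 15 kb (0.625%).

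Short loops had more read pairs but a lower enrichment than longer loops. The median observed over expected of short loops was 2.53 (2.51 to 2.55) in the SMC1-labelled list and 2.54 (2.52 to 2.55) in the CTCF-labelled list. Loops from 35 kb to under 500 kb, called middle loops below, had medians of 4.14 and 4.10, and loops of 500 kb or more, called long loops, 7.07 and 7.73. The short median was the lower one in 22 of 22 autosomes in both lists. Median read pairs ran the other way, at 41 and 38 in short loops, 21 and 22 in middle loops and 15 and 17 in long loops. The expected count was also higher at short span, with medians of 16.2 and 15.3 read pairs against 4.94 and 5.41 in middle loops. Every loop needs at least 12 read pairs, so a pair with a low expected count enters the lists only at a higher ratio. The ratio must be at least 2.00, so a pair with a high expected count enters only with more read pairs. How much of these differences the limits and the expected count set was not tested.

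The step at the limit was small. At 30 kb the median observed over expected was 2.58 (2.53 to 2.64) in the SMC1-labelled list and 2.65 (2.61 to 2.68) in the CTCF-labelled list. At 35 kb the medians were 2.67 (2.62 to 2.72) and 2.74 (2.70 to 2.80). The medians were thus a little higher at 35 kb, and the intervals of the SMC1-labelled list overlapped across the limit. The highest single values among short loops were 6.95 and 8.55, and each rested on few reads, 22 and 14 read pairs.

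**Figure D2:**
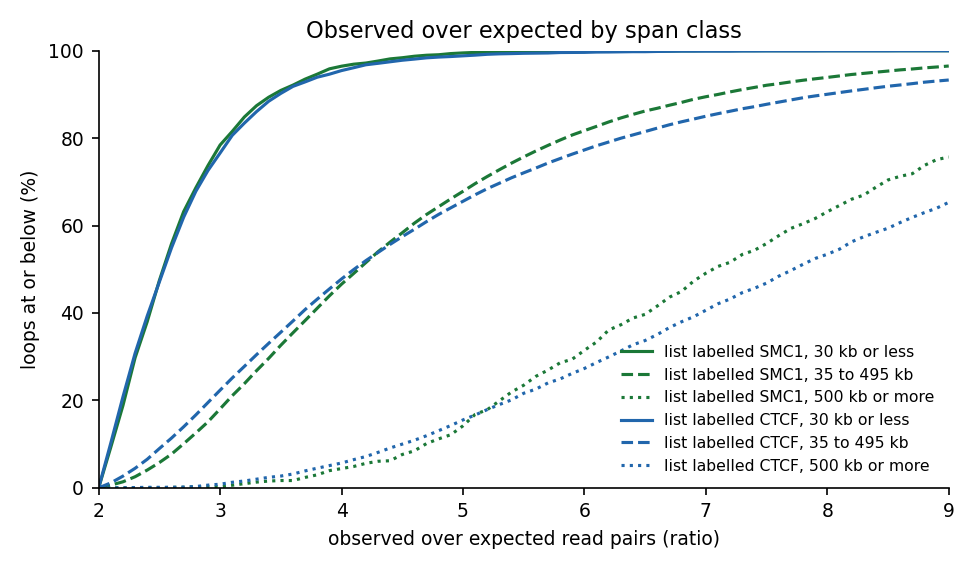
Cumulative share of loops in percent against observed over expected (a ratio, linear axis from 2 to 9, beyond which middle and long loops extend), for short (10 to 30 kb), middle (from 35 kb to under 500 kb) and long (500 kb or more) loops of each list. The short curves lie to the left in both lists, with medians of 2.53 and 2.54 against 4.14 and 4.10 for middle loops.

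The loop with most read pairs in both lists joined 2 bins of HOOK2, chr19:12775001-12780000 and chr19:12795001-12800000, over 20 kb. HOOK2 encodes an adaptor protein that links cargo to microtubules, the left bin holds its promoter, and the right bin also overlaps PRDX2, which encodes a peroxide-reducing enzyme of the cytosol. The annotated span of HOOK2 is 109.7 kb, and bins inside it also overlap JUNB and PRDX2. A loop counted inside HOOK2 can therefore join separate genes. It had 426 read pairs in the SMC1-labelled list (observed over expected 4.51) and 850 in the CTCF-labelled list (5.13). Within the same stretch, a 15 kb loop joined the HOOK2 promoter to JUNB, an AP-1 transcription factor of activated lymphocytes, with 189 and 343 read pairs. Both loops shared their left anchor, which holds 2 peaks of each target.

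The next in both lists was a 10 kb loop at chr14:22555001-22560000 and chr14:22565001-22570000. Its right bin overlaps DAD1, a subunit of the oligosaccharyltransferase that attaches sugars to proteins. It had 385 read pairs against 78.7 expected in the SMC1-labelled list and 778 against 304.6 in the CTCF-labelled list, so that its observed over expected was 4.89 in one and 2.55 in the other. CSK, the kinase that inhibits Src family kinases, carried a 15 kb loop between separate promoters of the gene with 289 and 393 read pairs. A 30 kb loop from LRP1, a lipoprotein receptor, to the promoter of NDUFA4L2 had 279 and 415. The HOOK2, DAD1, CSK and NDUFA4L2 loops were called in both lists, each with peaks of both targets at both anchors.

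Among the CTCF-labelled short loops the highest enrichment with over 100 read pairs lay at ARHGEF17, which encodes a guanine nucleotide exchange factor, with 455 read pairs and an observed over expected of 7.43 over 30 kb. The same bins had 187 read pairs and 3.65 in the SMC1-labelled list. A 30 kb loop between the promoters of SGCA, a muscle sarcoglycan, and COL1A1, a chain of type I collagen, had 299 read pairs and 7.26, against 82 and 2.87. A 30 kb loop that ends at the last part of KDM6B, an H3K27 demethylase, and the promoter of TMEM88 had 384 read pairs and 7.22, against 215 and 4.47. These loops were picked for their high values in the CTCF-labelled list, so the lower values in the other list are a description only.

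Short loops as a whole held peaks at both anchors less often than longer loops. In the SMC1-labelled list SMC1 peaks stood at both anchors of 59.8% of short loops (57.9 to 61.6), 67.7% of middle loops and 78.4% of long loops. CTCF peaks stood at both anchors of CTCF-labelled loops in 32.4% (31.2 to 33.7), 47.7% and 73.2%. With the peaks of the other target the shares were 53.7%, 57.9% and 70.1% in the SMC1-labelled list and 66.9%, 70.6% and 83.3% in the CTCF-labelled list. The short share was below the middle share in 20 to 22 of 22 autosomes for each combination. The share rose steeply within the short loops themselves. In the SMC1-labelled list SMC1 peaks were at both anchors of 44.6% at 10 kb and 76.5% at 30 kb, and in the CTCF-labelled list CTCF peaks were at both anchors of 16.4% at 10 kb and 41.4% at 30 kb. For SMC1 peaks the difference from middle loops lay mostly in the 10 kb loops. From 15 to 30 kb the SMC1 share ran from 61.5% to 76.5% in the SMC1-labelled list and from 70.5% to 74.98% in the CTCF-labelled list, around the middle shares. The CTCF share of the CTCF-labelled list stayed below its middle share at these spans too, at 28.9% to 41.4%.

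**Figure D3:**
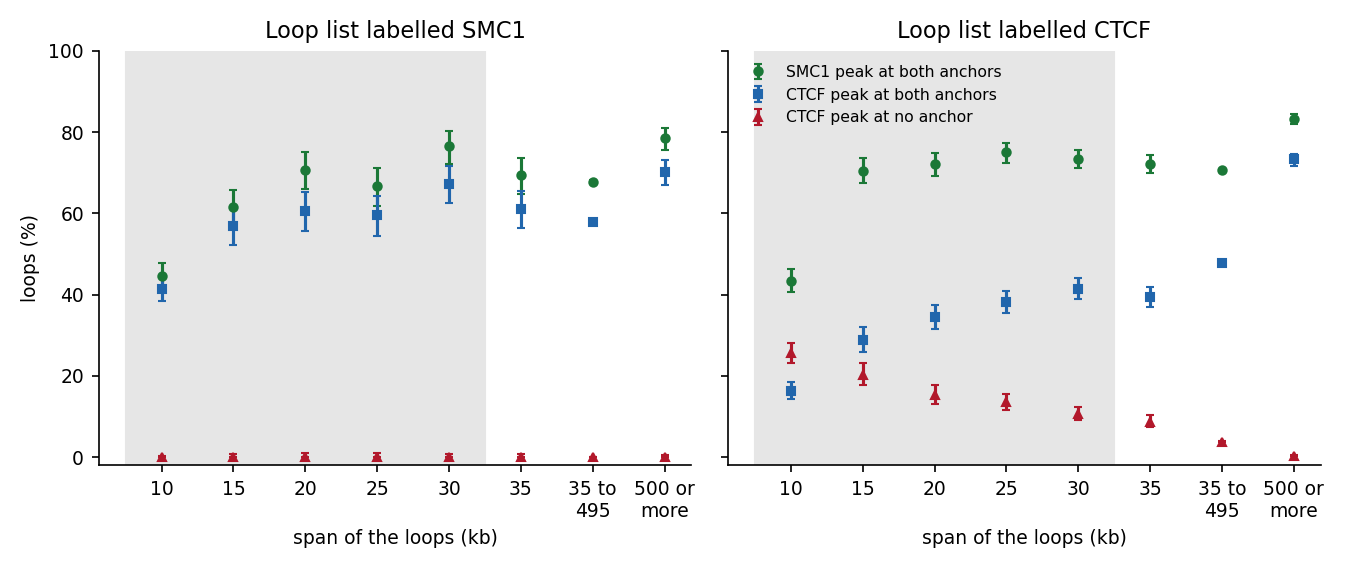
Share of loops in percent with an SMC1 peak (green) or a CTCF peak (blue) at both anchors, or a CTCF peak at neither (red), against span in kb, for each loop list, with 95% Wilson intervals and the short loops in grey. At 10 kb the shares with peaks at both anchors lie between 16.4% and 44.6%, and at 30 kb between 41.4% and 76.5%.

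The 942 CTCF-labelled short loops without a CTCF peak lay in genes more often and at promoters less often than the other CTCF-labelled short loops. They made up 25.6% of the 10 kb loops and 10.6% of the 30 kb loops, against 3.84% of middle and 0.385% of long loops, and their share among short loops was the higher one in 22 of 22 autosomes. Both anchors lay in 1 coding gene in 43.5% (40.4 to 46.7), against 25.4% of the others, and a coding promoter stood at an anchor in 36.8% (33.8 to 39.96), against 59.0%. Of all candidate pairs with SMC1 peaks, 38.1% lay in 1 coding gene and 71.6% held no promoter. They include pairs with a CTCF peak, so they are not matched to the 942 loops. The 942 loops thus held a promoter more often than these candidates and less often than the other loops. They had a median of 30 read pairs, against 41 in the other CTCF-labelled short loops, while the intervals of the median observed over expected overlapped, 2.55 (2.51 to 2.59) against 2.53 (2.51 to 2.55). Their SMC1 peaks were weak, with a median highest −log10 q of 28.5, against 88.4 in the others. None of the 942 was in the SMC1-labelled list, all of whose loops have a CTCF peak.

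Candidate pairs with peaks at both bins were called more often than pairs with a peak at 1 bin. Among candidates chosen by SMC1 peaks, 1.07% (1.02 to 1.12) of pairs with peaks at both bins and 0.173% of pairs with a peak at 1 bin were SMC1-labelled loops. Among candidates chosen by CTCF peaks, 3.25% (3.11 to 3.40) and 0.598% were CTCF-labelled loops. With the peaks of the other target the rates were 2.50% and 0.252%, and 2.57% and 0.308%. Pairs with both peaks had the higher rate in 22 of 22 autosomes in all 4 combinations. With a peak between the bins, a split made after the rates were seen, the rate was 0.369% against 0.315% without one for the SMC1-labelled list and 0.941% against 0.822% for the CTCF-labelled list. The peaks of the other target gave 0.546% against 0.440% and 0.831% against 0.622%.

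Promoters were common at the anchors. A promoter here is a bin within 1 kb of the start of a protein-coding transcript. At least 1 anchor held one in 58.4% (56.5 to 60.3) of SMC1-labelled and 55.3% (54.0 to 56.6) of CTCF-labelled short loops, against 46.3% and 41.1% of middle loops and 32.1% and 23.8% of long loops. Both anchors held one in 420 SMC1-labelled loops (15.9%, 14.6 to 17.4) and 837 CTCF-labelled loops (14.8%, 13.9 to 15.7), against 8.86% and 6.90% of middle loops. The share with promoters at both anchors was above that of middle loops in 21 and 22 of 22 autosomes. The enrichment of these loops was no higher, with a median observed over expected of 2.46 (2.43 to 2.52) with promoters at both anchors and 2.59 (2.56 to 2.63) with none in the SMC1-labelled list, and 2.53 and 2.54 in the CTCF-labelled list. The GC content of the anchors also moved with promoter content, with medians of 54.5% and 52.7% in loops with promoters at both anchors and 47.5% and 45.4% in loops with none, and its part was not tested.

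Candidate pairs were called more often the more promoters they held. Among candidates with peaks of the list's label at both bins, SMC1-labelled loops were called from 3.10% (2.79 to 3.45) of pairs with promoters at both bins, 1.53% with a promoter at 1 bin and 0.607% with none. CTCF-labelled rates were 8.06% (7.36 to 8.82), 3.93% and 2.00%. With the peaks of the other target they were 5.51%, 3.08% and 1.62%, and 6.63%, 3.42% and 1.69%. The order held in each combination. It also held after a split by the −log10 q of the weaker bin, chosen after the rates were seen, with rates of 1.25% against 0.259% under 10 and 8.93% against 3.17% at 50 or more for promoters at both bins against none in the SMC1-labelled list. For the CTCF-labelled list the same values were 5.89% against 1.28% and 13.9% against 4.84%. The peaks of the other target gave 4.88% against 1.63% and 6.82% against 1.67% for the SMC1-labelled list, and 2.38% against 0.661% and 15.9% against 6.86% for the CTCF-labelled list.

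**Figure D4:**
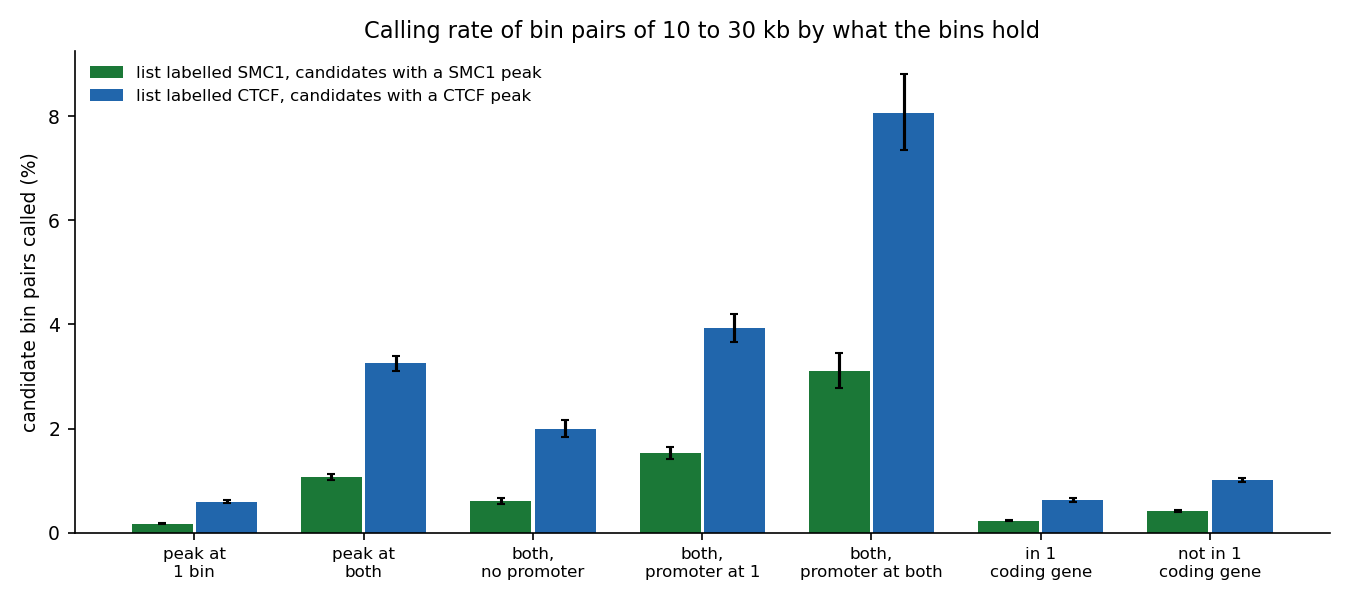
Share of candidate bin pairs of 10 to 30 kb called as loops, in percent, by what the bins hold, for the list labelled SMC1 with SMC1 peaks (green) and the list labelled CTCF with CTCF peaks (blue); bars start at 0 and error bars are 95% Wilson intervals. Among pairs with peaks of any −log10 q at both bins, rates are highest with promoters at both bins (3.10% and 8.06%). The labels of the loop lists appear exchanged, and with the peaks of the other target, not drawn, these rates are 5.51% and 6.63%. Rates are lower for pairs inside 1 coding gene than for other pairs.

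Most promoter pairs joined different genes. This was so in 296 of 420 SMC1-labelled pairs (70.5%) and 621 of 837 CTCF-labelled pairs (74.2%), while the others joined separate starts of 1 gene. Where each bin held the promoter of 1 gene only, the genes pointed the same way in 106 of 182 pairs (58.2%) and 211 of 398 (53.0%). They pointed away from each other in 47 and 126 pairs and towards each other in 29 and 61. The CTCF-labelled pair with most reads joined AHDC1 to FGR, a Src family kinase of blood cells, over 25 kb with 471 read pairs, against 92 in the SMC1-labelled list. SHMT2, the mitochondrial enzyme that makes glycine from serine, was joined to NDUFA4L2 over 10 kb with 220 read pairs in the SMC1-labelled list and 165 in the CTCF-labelled list.

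Of all 18765 autosomal coding genes, 6.86% had a promoter bin in an SMC1-labelled short loop and 13.2% in a CTCF-labelled one. The gene lists used here were chosen with earlier results of these data known, and their counts are given against these percentages as a description. Of 28 B cell identity genes, 9 had an SMC1-labelled and 8 a CTCF-labelled short loop, and 6 genes had both. The higher share was not particular to short loops. With loops of any span 23 (82.1%) and 28 (100%) of these genes had a loop, against 26.3% and 49.3% of all coding genes. PAX5, the factor that maintains B cell identity, carried a 25 kb loop with 51 read pairs in the SMC1-labelled and 187 in the CTCF-labelled list. POU2F2, an octamer-binding factor of B cells, carried one of 25 kb with 139 and 377, SPI1, which encodes the factor PU.1, one of 30 kb with 69 and 188, and CD79B, a signalling chain of the B cell receptor, one of 15 kb with 59 and 156. All of these had more read pairs in the CTCF-labelled list, as had 554 of all 757 short loops called in both lists. These are raw counts that were not adjusted for library depth. FCER2, the low-affinity IgE receptor, had a loop of 107 read pairs over 20 kb in the SMC1-labelled list only, and TCF3, an E-protein needed for B cell development, one of 101 read pairs over 10 kb in the CTCF-labelled list only.

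Of 27 NF-kappaB and activation genes, 4 had an SMC1-labelled short loop (CD86, JUNB, IRF1, BCL3) and 6 a CTCF-labelled one (RELA, ICAM1, CCL22, CCR7, JUNB, BCL3). BCL3, an atypical inhibitor of the NF-kappaB family, had 49 and 162 read pairs in the same 30 kb loop. ICAM1, an adhesion molecule, had 179 read pairs over 15 kb in the CTCF-labelled list only. Of 21 housekeeping genes, 3 (14.3%) and 7 (33.3%) had a short loop, among them ACTB, which encodes cytoplasmic actin. The B cell identity shares were 32.1% and 28.6%, so in the CTCF-labelled list the housekeeping share was the higher one. With loops of any span 8 (38.1%) and 16 (76.2%) of the housekeeping genes had a loop. Of 30 genes of other lineages, 2 (FOXA2, COL1A1) and 1 (COL1A1) had one, and of 12 genes for cohesin and CTCF factors 0 and 1, the CTCF gene itself, with a 15 kb loop of 192 read pairs. The lists are short, so that the interval around the B cell share in the SMC1-labelled list ran from 17.9% to 50.7%.

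Many short loops lay inside a gene. Both anchors were wholly within 1 protein-coding gene in 678 SMC1-labelled loops (25.7%, 24.1 to 27.4) and 1609 CTCF-labelled loops (28.4%, 27.2 to 29.6), against 6.08% and 10.5% of middle loops, which fit inside fewer genes. These shares of short loops were below those of the candidate pairs of 10 to 30 kb, of which 38.1% with SMC1 peaks and 35.3% with CTCF peaks lay in 1 coding gene. At 10 kb the shares were 32.8% and 36.6%, and at 30 kb 15.0% and 22.4%. Of the 678 loops 381 had no promoter at an anchor, and of the 1609 loops 961 had none. No coding gene touched either anchor in 14.7% and 18.1% of short loops. A gene here is its whole annotated span, which can run over other coding genes, as at HOOK2.

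Candidate pairs inside 1 gene were called less often than other pairs. Of the candidate pairs that lay wholly in 1 coding gene 0.234% (0.217 to 0.252) were SMC1-labelled loops, against 0.417% of other pairs, with SMC1 peaks. For the CTCF-labelled list with CTCF peaks the rates were 0.630% (0.595 to 0.666) and 1.01%. The rate inside genes was the lower one in 20 and 19 of 22 autosomes. With the peaks of the other target it was 0.356% against 0.560% and 0.559% against 0.867%. Among pairs with peaks at both bins and no promoter, where promoter content was the same, the rates were 0.416% against 0.769% and 1.52% against 2.28%, and with the peaks of the other target they were 1.29% against 1.81% and 1.47% against 1.88%. The rate inside genes was the lower one in each of these settings, but among pairs with peaks at both bins and no promoter this held in fewer autosomes, 19 of 22 for the SMC1-labelled and 16 of 22 for the CTCF-labelled list, and 15 of 22 for both with the peaks of the other target.

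Among the 10 host genes with most short loops in the SMC1-labelled list, HOOK2 had the most reads, with 5 loops and 900 read pairs. Its annotated span also holds bins that overlap JUNB and PRDX2. LIMD1, which encodes a LIM-domain scaffold protein, and SMG6, the endonuclease of nonsense-mediated mRNA decay, held most loops, 6 each, with 215 and 152 read pairs. In the CTCF-labelled list CLDN14, a tight-junction claudin, SLC2A3, the glucose transporter GLUT3, and PEBP4 held 8 loops each, with 637, 341 and 262 read pairs. LMNA, which encodes the nuclear lamins A and C, was among the leading hosts of both lists, with 5 loops and 213 read pairs and 6 loops and 745 read pairs, of which 4 were shared. In all, 416 and 937 coding genes held a short loop, and 231 and 481 of them held 1 only.

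Some short loops joined the bin of a gene's start to the bin of its end. There were 83 in the SMC1-labelled list (3.15%, 2.55 to 3.89) and 123 in the CTCF-labelled list (2.17%, 1.82 to 2.58). PTPN6, the phosphatase SHP-1 that restrains B cell receptor signalling, had the most reads in the CTCF-labelled list, 323 over 15 kb. It had 128 in the SMC1-labelled list. KDM6B had 141 and 124 over 20 kb in the SMC1-labelled and CTCF-labelled lists, but its end bin also holds the promoter of TMEM88. ZBTB32, a zinc-finger repressor of lymphocytes, had 158 and 145 over 15 kb, the most reads in the SMC1-labelled list. The end bin of ZBTB32 also holds the promoter of KMT2B, a histone H3K4 methyltransferase. Nearly all start and end pairs hold a coding promoter, so those that do were compared with other pairs at equal promoter content, a split made after the rates were seen. With a promoter at 1 bin, 1.07% (0.786 to 1.46) of start and end pairs against 0.584% (0.551 to 0.620) of other pairs were SMC1-labelled loops, and 1.88% (1.45 to 2.45) against 1.44% (1.38 to 1.51) CTCF-labelled loops. With promoters at both bins the rates were 3.40% against 1.48% and 5.57% against 3.47%. The start and end pairs had the higher rate in all 4 comparisons, although the intervals of the CTCF-labelled list met at 1 promoter. The peaks of the other target gave 1.36% against 0.790% and 1.57% against 1.21% at 1 promoter, and 3.95% against 1.86% and 5.02% against 3.05% at both.

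Short loops were found in the other list less often than longer ones. The same pair of bins was called in the other list for 757 loops, 28.7% (27.0 to 30.5) of the SMC1-labelled and 13.4% (12.5 to 14.3) of the CTCF-labelled short loops. Of middle loops 73.2% and 25.3% were, and of long loops 75.4% and 18.7%. The short share was below the middle share in 22 of 22 autosomes in both lists. In the SMC1-labelled list it was 12.8% at 10 kb, 53.7% at 30 kb and 62.2% at 35 kb, and in the CTCF-labelled list 10.6% at 10 kb, 16.0% at 30 kb and 17.8% at 35 kb. The 10 kb loops were thus the least shared of these classes in both lists. When each anchor was allowed to be off by 15 kb the shares of all short loops rose to 58.2% and 37.5%.

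**Figure D5:**
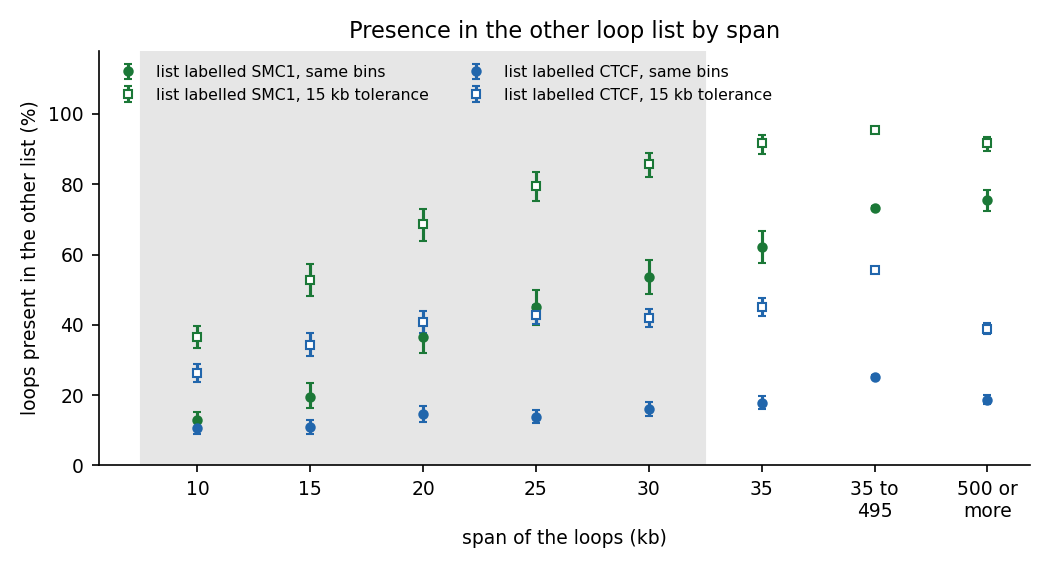
Share of loops in percent that are present in the other list against span in kb, for the list labelled SMC1 (green) and the list labelled CTCF (blue), with the same bins (filled) and with 15 kb of tolerance at each anchor (open); bars are 95% Wilson intervals and grey marks the short loops. The SMC1-labelled share climbs from 12.8% at 10 kb to 53.7% at 30 kb with the same bins, while the CTCF-labelled share stays between 10.6% and 16.0%.

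The 757 shared loops had more reads than the others. Their median was 48 read pairs in the SMC1-labelled list, against 39 for loops not shared, and 72 in the CTCF-labelled list, against 36. The read pairs of the CTCF-labelled list exceeded those of the SMC1-labelled list in 554 of the 757, with a median ratio of 1.5 (1.42 to 1.60), while the ratio of the observed over expected values was 1.02 (0.999 to 1.06). Raw counts depend on library depth, and the paper lists more reads for SMC1 than for CTCF. If the labels are exchanged, the CTCF-labelled list is the one with more reads. The part of depth in the higher counts was not tested. Across these loops Spearman's rank correlation between the lists was 0.42 for read pairs and 0.08 for observed over expected. It was 0.58 and 0.55 across 17789 shared middle loops. These are descriptions across loops, which are not independent and share bins, distances and the caller's limits. Both correlations were taken only over loops that passed the caller's limit on observed over expected in both lists, to which the short loops lie closer, so the values for short and middle loops are not compared.

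Loops outside the other list were not all weak. A 10 kb loop between LBR and ENAH at chr1:225465001-225470000 and chr1:225475001-225480000 had 258 read pairs in the SMC1-labelled list only, with a CTCF peak at 1 anchor whose −log10 q was 733.1. Another of 245 read pairs ended at the promoter of PLEKHG2. In the CTCF-labelled list, a 20 kb loop between CYP11A1 and SEMA7A had 477 read pairs at an observed over expected of 2.03. A 10 kb loop inside IL4I1, which encodes an amino-acid oxidase of B cells and myeloid cells, had 310 read pairs at 2.38. A 10 kb loop upstream of RUNX3, a transcription factor of lymphocytes, had 304 at 2.02. The loops near SEMA7A and RUNX3 thus had many reads but a ratio close to the lowest that the list admits.

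The anchors of short loops were partly those of longer loops. Of 3904 bins that anchored SMC1-labelled short loops 46.1% also anchored a longer loop of that list, and of 8386 CTCF-labelled bins 55.4% did. In 25.3% and 33.4% of short loops both bins also anchored longer loops. Most bins, 77.7% and 73.3%, took part in 1 short loop only. The busiest bin of the SMC1-labelled list lay at the promoter of MARCKSL1, a substrate of protein kinase C, at chr1:32335001-32340000, with 9 short loops of 22 to 96 read pairs each. In the CTCF-labelled list it lay in RAPGEF3, an exchange factor for Rap that is activated by cyclic AMP, at chr12:47740001-47745000, with 8 loops of 64 to 293 read pairs. The bin of the FGR promoter held 5 CTCF-labelled loops of 156 to 471 read pairs, although its CTCF peak was weak, with a −log10 q of 5.37 against 93.7 for SMC1.

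MAPS groups neighbouring pairs into clusters, and short loops stood alone more often. Singletons were 20.01% (18.5 to 21.6) of SMC1-labelled and 13.7% (12.9 to 14.6) of CTCF-labelled short loops, against 7.34% and 7.45% of middle loops, in 22 of 22 autosomes in both lists. Per chromosome, short loops were densest on the gene-rich chromosome 19, with 40.3 and 65.7 per 10 Mb. They were sparsest on chromosome 13, with 1.92 and 5.77. Their share of a chromosome's loops varied less, from 6.52% to 12.1% in the SMC1-labelled list and from 4.83% to 9.25% in the CTCF-labelled list.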

How the data were processed

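The authors aligned HiChIP reads with BWA-MEM to hg38, called peaks with MACS3 version 3.0.1 and loops with MAPS in 5 kb bins, on merged replicates. The deposited loop lists hold raw read pair counts, expected counts, a false discovery rate (an adjusted p-value), a cluster label, size and summit, and the deposited peak lists a fold enrichment over local background (a ratio) and a −log10 q, beside a −log10 p that was not used. No replicate values entered, so no test was run.

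Observed over expected was the count divided by the expected count. A peak, promoter or gene was assigned to a bin by an overlap of at least 1 bp, with GENCODE release 44. Candidates were all bin pairs of the same span with a peak at 1 or both bins. Words were searched on both strands of hg38. Members, gene lists and tests were chosen with earlier results of these data known. Named loops were, per list, the 5 with most read pairs, the 5 with the highest observed over expected and the 3 with most read pairs among loops with promoters at both anchors, in 1 gene, from start to end of 1 gene, absent from the other list, or with convergent words. Named genes and bins were the 10 host genes and 5 bins with most short loops and the members of the gene lists with a short loop, and some were left out. Alternatives were other spans, 1 loop per cluster, other peak, promoter and gene definitions, tolerances, odd and even autosomes, and exchanged lists. Depth is given as read pairs per loop, and library totals were not used. Functions were tested on planted data. Scripts ran in Python 3.11.15 with pandas 2.3.3, NumPy 2.4.6 and SciPy 1.17.1, and plots were drawn with Matplotlib 3.10.9.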

Additional observations from a re-analysis of the deposited data

How the results depend on the processing

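Values are given for the SMC1-labelled and then the CTCF-labelled list. No paired analysis was possible because the pooled lists carry no replicate values, so no replicate could be left out either. With spans up to 20 kb the median observed over expected was 2.50 and 2.47, peaks at both anchors stood in 54.5% and 25.9%, both anchors in 1 gene in 29.0% and 32.4%, and presence in the other list was 19.7% and 12.0%, while CTCF-labelled loops numbered 3019 with a promoter at an anchor in 52.5%. Up to 40 kb there were 8842 CTCF-labelled loops. With 1 bin pair per cluster 1127 and 1958 loops were left, with medians of 2.65 and 2.68, promoters at an anchor in 55.5% and 51.9%, 28.0% of SMC1-labelled loops in 1 gene, and 41.2% and 16.8% of CTCF-labelled loops with peaks and promoters at both anchors. With at least 20 read pairs the medians were 2.50 and 2.49. Peaks at both anchors fell to 51.9% and 27.9% by summit and to 47.8% and 21.6% with a −log10 q of at least 10. With lists exchanged peaks at both anchors stood in 53.7% and 66.9% and the calling rate was 0.488% and 0.750%; the other shares only trade names. Promoter starts inside the bin gave 51.3% and 47.9% at an anchor and 10.97% and 10.3% at both, and starts of all genes 78.3% and 72.7%, and 34.2% and 30.6%. Bins that overlap 1 gene gave 44.002% and 43.3%, genes of any type 28.8% and 32.5%, and loops without a promoter, split after seeing the data, 34.8% and 37.9%. A tolerance of 5 kb gave 43.2% and 27.0% in the other list, and 15 kb 58.2% and 37.5%. On odd and on even autosomes promoters at an anchor stood in 60.5% and 55.7% (SMC1-labelled) and 57.7% and 52.2% (CTCF-labelled), presence in the other list was 31.3% and 25.5%, and 14.5% and 11.9%, and calling rates were 0.376% and 0.317%, and 0.955% and 0.788%. For the CTCF-labelled list, peaks at both anchors were 33.7% and 30.8%, and promoters at both 13.7% on even autosomes. Candidates with a peak at both bins, added after seeing the rates, were called at 1.07% and 3.25%. Convergent words with summits of −log10 q of at least 10 stood in 100% of SMC1-labelled loops, which was 1 loop. The cause of these shifts was not tested. Short loops kept a lower presence in the other list than middle loops under the tolerances of 5 and 15 kb in 22 of 22 autosomes. Both lists hold only pairs of at least 12 read pairs, in each span class, so short contacts with fewer read pairs cannot be seen in them. This limit is a raw count, and what would pass it at another depth was not tested.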
